A study of Solanum virginianum with 24 samples.

Results

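Of 10101 probe sets measured through the growth of eggplant fruit, 74 stood at least 1 log2 unit (2-fold) above the day of flowering at 50 days post anthesis (dpa) and within 0.5 log2 units of it at 5, 10 and 20 dpa. These transcripts raised only at 50 dpa were chosen from the measured values themselves. For each stage the mean of its 3 arrays was set against the mean of the 3 arrays of 0 dpa that had been normalised with it, and the 3 limits above were applied. Their differences from 0 dpa are therefore a description. Counts of members past a test are given beside the same share of all probe sets, and nothing is read from them. The fruit, of cultivar PPL, came from glasshouse plants with hand-pollinated flowers. It was taken at 5, 10, 20 and 50 dpa and on the day of anthesis, 0 dpa, and RNA of harvested fruit was hybridised to the Affymetrix tomato GeneChip. Each stage had 3 arrays, called biological replicates in the labels. The series title names the species Solanum melongena, while the sample records say Solanum virginianum. No treatment or genotype separates the groups, and age is the only factor.

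Eggplant transcripts were read on tomato probes, so the gene symbols are those of tomato and a signal can be lowered, or shared by a related gene, where the sequences differ. The deposited log2 values hold no signal level, since each probe set was centred within its set of 6 columns, and only differences between arrays can be read. RNA came from fruit with several tissues, so more cells of a type and more RNA per cell cannot be told apart.

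Ripening of fleshy fruit is a late programme in which the grown fruit softens, changes its pigments and makes aroma compounds. In tomato, a close relative, it is driven by ethylene together with a small set of transcription factors, among them the MADS-box protein RIN. Eggplant is usually counted among fruits that ripen without a burst of ethylene. Lipid-oxidising enzymes such as lipoxygenases form precursors of volatiles and of defence signals, and chitinases cleave a polymer of fungal walls.

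Of the 74 members, 11 (14.9%) carried a gene symbol, against 9% of all probe sets, and 63 had none in the 2007 platform annotation. The named ones were TomloxE (a lipoxygenase gene), ALPHA-DOX2 (a fatty acid alpha-dioxygenase gene), RIN, FER (in tomato roots, a basic helix-loop-helix regulator of iron uptake), SAR2 (a small GTP-binding protein of vesicle transport), CHI17 (a chitinase), HRBP1 and 4 that the annotation lists only as LOC543677, LOC543892, LOC778266 and LOC543864.

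Most members rose by little more than the limit. The median difference at 50 dpa was 1.25, or 2.38-fold, beside a median of 0.02 over all 10101 probe sets. The quartiles were 1.09 and 1.47. There were 56 members under 1.5, 10 members from 1.5 to under 2 and 8 members at 2 or more, and the highest reached 3.08 (8.48-fold). The 364 other probe sets that stood at least 1 above 0 dpa at 50 dpa had a median of 1.45 and reached 6.04.

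**Figure D1:**
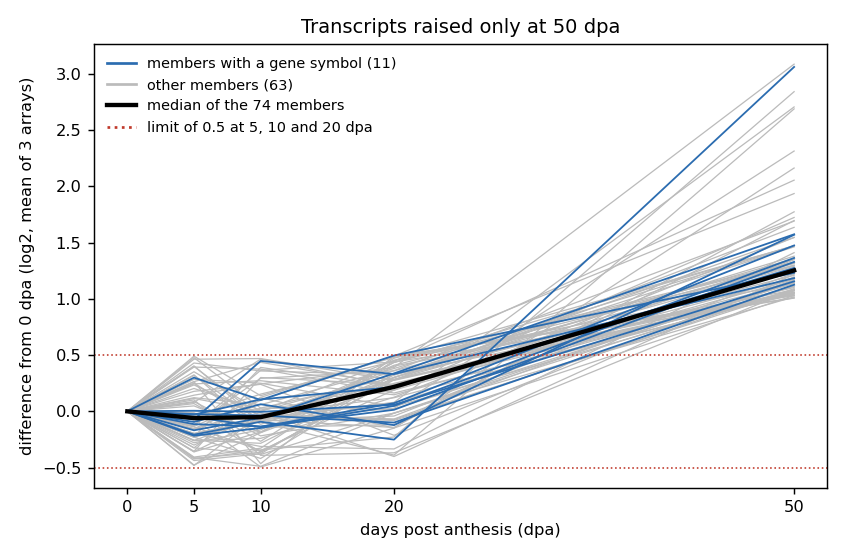
Difference from 0 dpa (log2, mean of 3 arrays) against days post anthesis for the 74 members, with the 11 named members in blue, the others in grey and their median in black. All lines stay between the dotted limits of 0.5 at 5, 10 and 20 dpa, as the choice of members requires, and the median reaches 1.25 at 50 dpa.

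At the limit of 1, the members just inside had differences of 1.01, 1.01 and 1.02 at 50 dpa, and the nearest flat probe sets just outside had 0.991, 0.991 and 0.989. At the earlier limit, the members just inside had a largest early difference of 0.496 (HRBP1), 0.494 and 0.494 in size, and the nearest raised probe sets just outside had 0.501, 0.504 and 0.504. Neither limit falls in a gap of the values, as the plot of late against early differences shows.

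**Figure D2:**
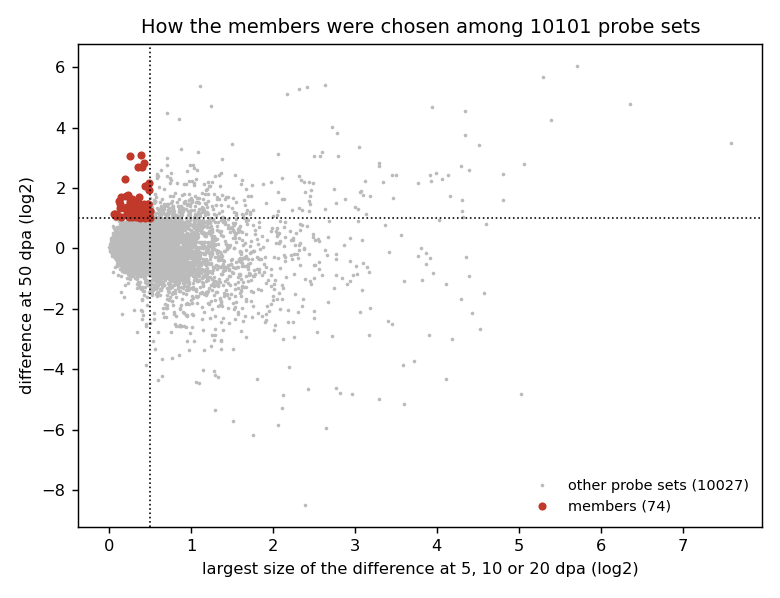
Difference at 50 dpa (log2) against the largest size of the difference at 5, 10 or 20 dpa (log2) for all 10101 probe sets, with the 74 members in red and the 10027 others in grey. The dotted lines are the limits of 1 and 0.5, and the members fill the corner they enclose with no gap at either line.

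Most probe sets that were high at 50 dpa had differed from 0 dpa by at least 0.5, in either direction, at an earlier stage. Of the 438 probe sets (4.34% of all) at least 1 above 0 dpa at 50 dpa, 74 (16.9%) were flat at all 3 earlier stages. For 179 the largest early difference was 0.5 to under 1 in size, so most of the 438 had not reached a size of 1 before. At 20 dpa 149 (34%) already stood at least 1 above 0 dpa, and 24 had been at least 1 below it at some earlier stage. On the other side, 48 (11.1%) of the 434 probe sets (4.3% of all) at least 1 below 0 dpa at 50 dpa had been flat before. Flat probe sets made up 66.8% of the whole array. These shares are descriptions of the same 15 arrays, and all 4 comparisons share the 3 arrays of 0 dpa.

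The largest named rise belonged to TomloxE, one of the lipoxygenases, which add oxygen to polyunsaturated fatty acids. Relative to the 0 dpa mean of their set, its 3 arrays at 50 dpa read 3.07, 3.16 and 2.95, against -0.14, 0.02 and 0.12 on the arrays of 0 dpa. All 3 arrays of 50 dpa lay far above those of 0 dpa, and the mean difference was 3.06 (8.34-fold; SD 0.11 at 50 dpa and 0.13 at 0 dpa, n = 3 each). Its means at the earlier stages were -0.21, -0.09 and -0.25 at 5, 10 and 20 dpa. At 20 dpa its arrays (-0.12, -0.24 and -0.39) all read below those of 0 dpa.

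ALPHA-DOX2, whose product oxygenates fatty acids at the alpha carbon, read 1.74, 1.29 and 1.06 at 50 dpa, against 0.10, 0.23 and -0.32 at 0 dpa. The groups did not overlap, though the arrays of 50 dpa were themselves spread over 0.68 log2 units between the highest and lowest. The mean difference was 1.36 (2.57-fold; SD 0.35 at 50 dpa and 0.29 at 0 dpa, n = 3 each). At 5, 10 and 20 dpa its means were -0.22, -0.15 and 0.05.

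RIN, the MADS-box regulator that tomato fruit need to ripen, read 1.14, 1.65 and 1.19 at 50 dpa, against -0.26, 0.29 and -0.02 at 0 dpa. Replicate 2 was the highest array at both stages. The difference was 1.33 (2.51-fold; SD 0.28 at 50 dpa and 0.28 at 0 dpa, n = 3 each). Its 20 dpa arrays read 0.27, -0.23 and 0.01, on both sides of the 0 dpa mean, and its means at 5 and 10 dpa were -0.11 and -0.13. RIN stayed among the members when any 1 of the 15 arrays was left out.

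FER, the iron-uptake regulator, read 1.34, 1.23 and 1.26 at 50 dpa, against -0.69, -0.03 and 0.72 at 0 dpa. Here the arrays of 50 dpa were tight and those of 0 dpa were widely spread (SD 0.057 at 50 dpa and 0.70 at 0 dpa, n = 3 each), and the difference was 1.27 (2.42-fold). Without 0 dpa replicate 1 the difference was 0.931, under the limit of 1.

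CHI17, a chitinase gene, read 1.27, 1.11 and 0.995 at 50 dpa, against -0.20, 0.19 and 0.0076 at 0 dpa, with no overlap. Its difference was 1.13 (2.18-fold; SD 0.14 at 50 dpa and 0.19 at 0 dpa, n = 3 each). Its earlier means were -0.02, -0.04 and -0.10 at 5, 10 and 20 dpa, and the earlier arrays lay on both sides of 0 at 5 and 10 dpa.

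SAR2, a small GTPase gene of the kind that builds coats of vesicles leaving the endoplasmic reticulum, read 1.07, 1.40 and 1.09 at 50 dpa, against -0.04, 0.10 and -0.05 at 0 dpa. Its difference was 1.18 (2.27-fold; SD 0.19 at 50 dpa and 0.084 at 0 dpa, n = 3 each). Its means were -0.07, 0.45 and 0.33 at 5, 10 and 20 dpa. At 10 dpa its arrays read 0.53, 0.43 and 0.38, all above those of 0 dpa in that set (0.09, 0.04 and -0.13).

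HRBP1 read 1.24, 1.27 and 1.19 at 50 dpa, against -0.0057, 0.021 and -0.015 at 0 dpa, which are among the tightest arrays of the named members. Its difference was 1.23 (2.35-fold; SD 0.042 at 50 dpa and 0.019 at 0 dpa, n = 3 each). At 5, 10 and 20 dpa its means were 0.30, 0.10 and 0.496, the last just inside the limit. It no longer met the limits without 0 dpa replicate 2 or without 20 dpa replicate 2.

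The 4 members with a LOC number rose by 1.16 to 1.57. LOC543677 read 1.56, 1.54 and 1.61 at 50 dpa, against -0.02, 0.04 and -0.02 at 0 dpa, and its mean at 20 dpa was 0.34. LOC543864 read 1.14, 1.22 and 1.11 at 50 dpa, against 0.03, -0.0046 and -0.03 at 0 dpa. For both, the spread within a group was small beside the difference at 50 dpa.

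LOC543892 read 1.59, 1.62 and 1.49 at 50 dpa, against -0.68, 0.69 and -0.0032 at 0 dpa, a wide spread on the arrays of 0 dpa like that of FER. LOC778266 read 1.81, 1.23 and 1.38 at 50 dpa, against 0.39, -0.25 and -0.14 at 0 dpa. Its arrays of 0 dpa had an SD of 0.48, 0.48 and 0.56 in the sets of 5, 10 and 20 dpa. Its 5 dpa arrays read -0.46, -0.06 and 0.37, so its early means lie within a spread near the limit of 0.5. Of the 11 named members, LOC543892, FER, RIN, LOC778266 and ALPHA-DOX2 had an SD of 0.277 or more over the arrays of 0 dpa in the set of 50 dpa.

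**Figure D3:**
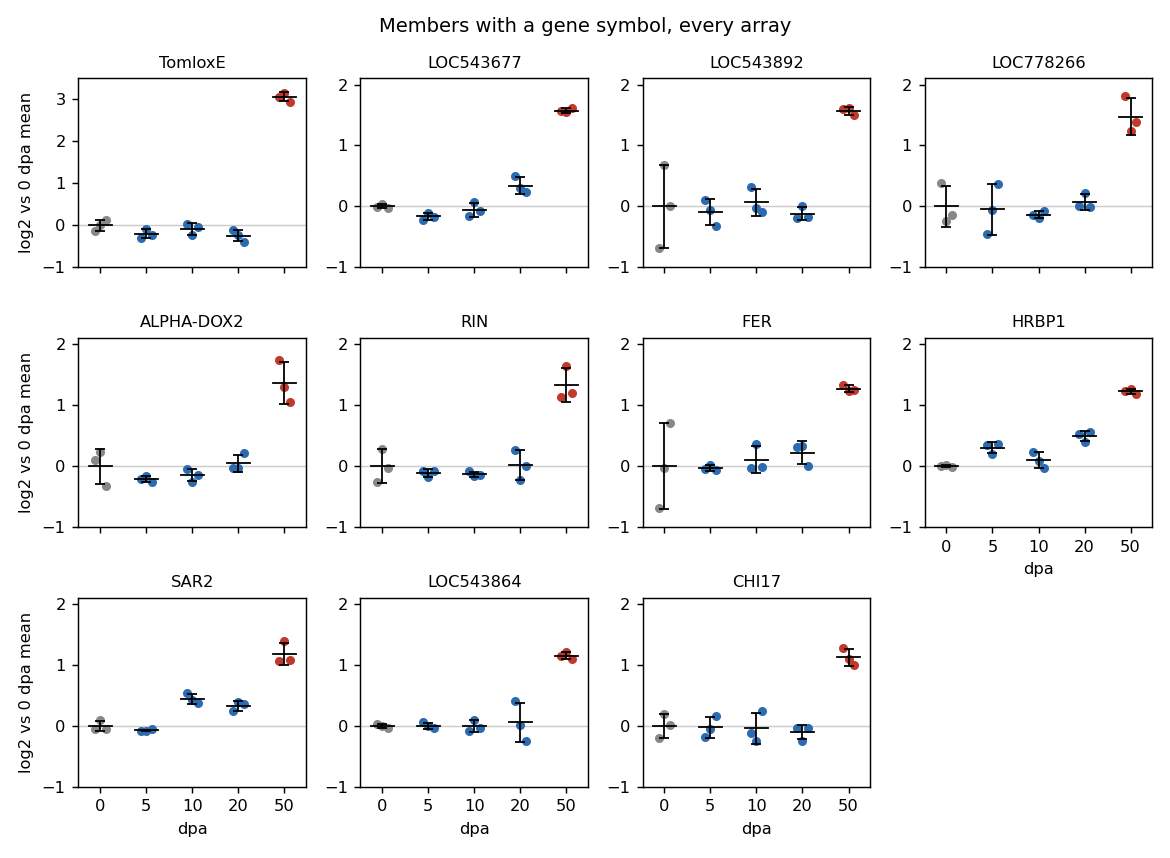
Value of every array, with the 0 dpa mean of its own set taken off (log2), against stage for the 11 named members. Points are arrays (grey for 0 dpa in the set of 50 dpa, blue for 5, 10 and 20 dpa, red for 50 dpa), and bars give the mean and SD of 3 arrays. In every panel the red points lie above all grey ones, and TomloxE, drawn on a taller axis, reaches 3.06.

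Among the 63 members without a symbol, 2 had differences at 50 dpa close to that of TomloxE. The highest of all read 3.06, 2.95 and 3.25 at 50 dpa, against 0.11, -0.49 and 0.38 at 0 dpa, a difference of 3.08 (8.48-fold). Its SD over the arrays of 0 dpa was 0.45 in this set, but 0.018, 0.061 and 0.044 in the sets of 5, 10 and 20 dpa. Other probe sets with the same cluster number in their name had differences of 0.08 and -0.16 at 50 dpa (limma adjusted p = 0.553 and 0.178). The next highest member without a symbol read 3.10, 2.94 and 2.49 at 50 dpa, against 0.31, -0.13 and -0.18 at 0 dpa, a difference of 2.84 (7.16-fold).

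The rise was seen on all 3 arrays of 50 dpa for every member. The lowest array of 50 dpa lay above the highest array of 0 dpa for 74 of 74 members, with a gap of 0.28 to 2.83 log2 units (median 0.986). Of all probe sets, 26.4% had arrays of 50 dpa wholly above those of 0 dpa. In limma, with p values adjusted over all probe sets by Benjamini-Hochberg, 74 members were called higher (adjusted p under 0.05), against 20.6% of all probe sets. The members were picked on this contrast, so neither count says anything further about them.

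Over the members, no array of 50 dpa stood apart from the others. The median over the members was 1.27, 1.28 and 1.27 on replicates 1, 2 and 3, and the highest array was replicate 1 for 24 members, replicate 2 for 27 and replicate 3 for 23. On all 3 arrays 53 members were at least 1 above the 0 dpa mean, and 21 fell short of 1 on at least 1 array, the lowest value being 0.47. The spread of the arrays of 50 dpa had a median SD of 0.131 in the members, 0.0915 in the 364 other raised probe sets and 0.117 in all probe sets.

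**Figure D4:**
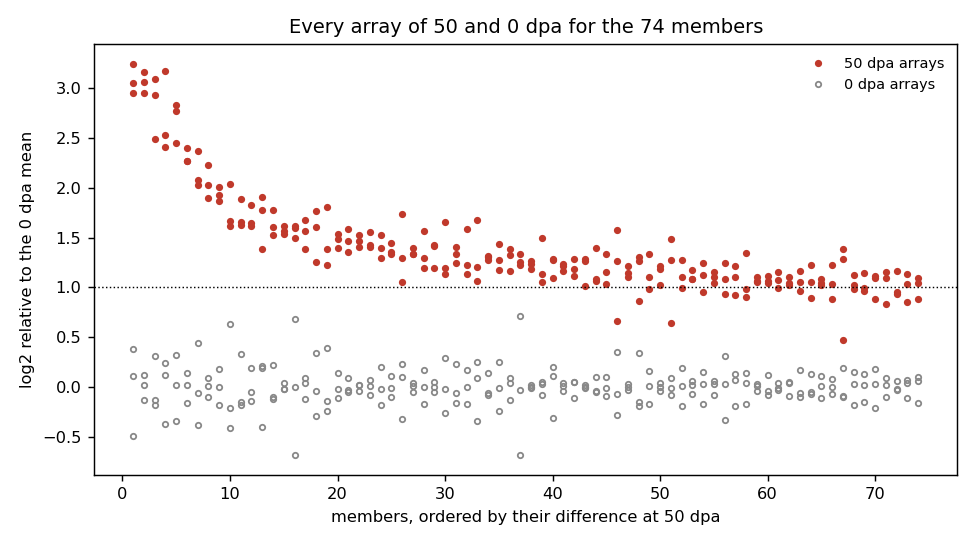
Value of each array of 50 dpa (red) and 0 dpa (open grey) relative to the 0 dpa mean (log2), for the 74 members ordered by their difference at 50 dpa. For every member the 3 red points lie above the 3 grey ones, and the dotted line marks a value of 1.

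At the earlier stages, where the rule held every member within 0.5 of 0 dpa, some members were still past the threshold in limma. At 5 dpa 20 members (27%) passed in limma, 10 higher and 10 lower, against 32% of all probe sets, 15.6% higher and 16.4% lower. At 10 dpa 25 members (33.8%) passed, 11 higher and 14 lower, against 35.3% of all probe sets, 15.9% higher and 19.4% lower. At 20 dpa 30 members (40.5%) passed, against 37.9% of all probe sets. These shares were at or below those of the whole array at 5 and 10 dpa and near it at 20 dpa, and nothing is read from them. The first 2 counts depended on single arrays of 0 dpa and on the test: at 5 dpa 9 members (12.2%) passed without 0 dpa replicate 1, against 24.8% of all probe sets, and 10 (13.5%) without replicate 2, against 24.3%. Under the test that the series' methods name, with Benjamini-Hochberg adjustment, 6 members (8.11%) passed at 5 dpa, against 20.9% of all probe sets. At 10 dpa 14 (18.9%) passed without 0 dpa replicate 1, against 29.8%, and 14 under the methods' test, against 26.2%.

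The direction at 20 dpa was uneven. Of the 30 members that passed there, 26 were higher and 4 lower. These were 35.1% and 5.41% of all members, against 17.8% and 20.1% of all probe sets. The difference at 20 dpa was above 0 for 54 members (73%) and below 0 for 20, and its median was 0.22. Over all probe sets that were flat at the 3 earlier stages, 44.4% were above 0 at 20 dpa, with a median of -0.03. At 5 dpa 29 members (39.2%) were above 0, and at 10 dpa 28 (37.8%), with medians of -0.06 and -0.05. Of the flat probe sets 47.7% were above 0 at 5 dpa and 45% at 10 dpa. The stages share the arrays of 0 dpa through which the members were chosen, so their differences are not independent of one another. Whether the sign at 20 dpa marks an early start was not tested.

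From 20 to 50 dpa the members' differences from 0 dpa grew by 0.51 to 3.31, with a median of 1.09, and by at least 1 for 46 of them. These steps set values across separately normalised sets. No fruit was taken in the 30 days between these stages, so the time of the rise within them is not known.

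The members' early values were not alike. The largest early difference was under 0.2 in size for 11 members, 0.2 to 0.4 for 34 and over 0.4 for 29. It fell at 5 dpa for 22 members, at 10 dpa for 18 and at 20 dpa for 34. All 3 early differences were above 0 for 15 members and below 0 for 13.

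Other probe sets with the same symbol or cluster number did not choose the members, and most of them did not rise as far. They were read on the same arrays as the members. Of the named members, 2 had another probe set under the same symbol. The other probe set of LOC543892 read 0.13, 0.77 and 0.30 at 50 dpa, against -0.11, -0.0069 and 0.12 at 0 dpa, and did not pass in limma (0.40, adjusted p = 0.0812), beside 1.57 for the member. That of LOC778266 had a difference of -0.15 (adjusted p = 0.473), beside 1.47 for the member.

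Across the module, 24 members shared the cluster number in their probe set name with 30 other probe sets. Of these 30, 12 (40%) passed as higher at 50 dpa in limma and 0 as lower, against 20.6% and 19.5% of all probe sets, and 18 did not pass. Only 3 of them stood at least 1 above 0 dpa, and 0 met the limits for members. Their differences at 50 dpa ran from -0.48 to 2.14 with a median of 0.27. Whether the probe sets of a symbol or cluster detect the same eggplant transcript, or the same strand, was not tested.

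The same 3 arrays of 0 dpa were normalised 4 times, once with each later stage, and for the members they were more spread in the set of 50 dpa than in the other sets. The median SD over the arrays of 0 dpa was 0.097, 0.0935, 0.0766 and 0.146 in the sets of 5, 10, 20 and 50 dpa for the members, and 0.105, 0.107, 0.11 and 0.109 for all probe sets. An SD of at least 0.3 was found for 1, 3, 3 and 13 of the members in these sets. For all probe sets the shares at that SD were 2.58%, 3.58%, 3.36% and 3.61%.

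FER had the highest such SD of the members. Its arrays of 0 dpa read 0.08, -0.01 and -0.06 in the set of 20 dpa (SD 0.073), but -0.69, -0.03 and 0.72 in the set of 50 dpa (SD 0.70). The RIN arrays of 0 dpa had an SD of 0.11, 0.066, 0.062 and 0.28 in the sets of 5, 10, 20 and 50 dpa, and those of LOC543892 had 0.15, 0.24, 0.12 and 0.68. In all, 10 members (13.5%) had an SD in the set of 50 dpa at least 2 times that in each other set, against 2.67% of all probe sets. The levels of 0.3 and 2 times were chosen after these values had been seen, and the part of this spread in the members' differences was not tested.

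**Figure D5:**
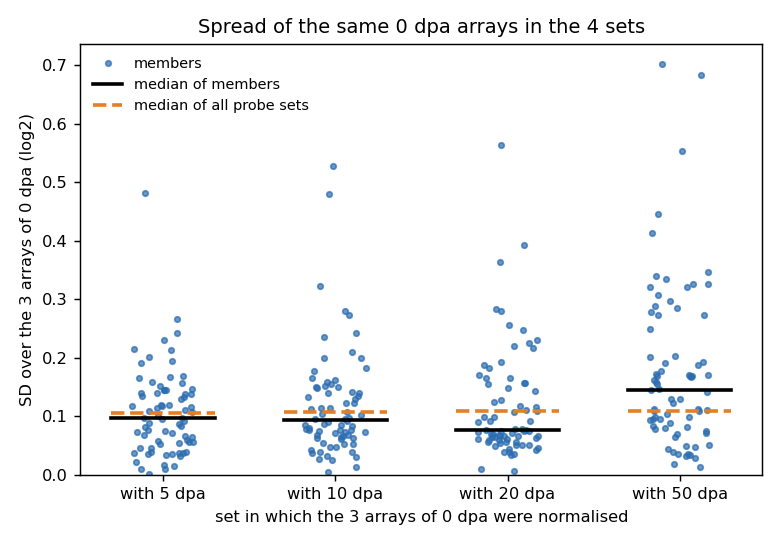
SD over the 3 arrays of 0 dpa (log2) in each of the 4 sets in which they were normalised, 1 point per member, with the median of the members in black and that of all 10101 probe sets dashed in orange. The members' median is 0.146 in the set of 50 dpa and 0.0766 to 0.097 in the other sets, while that of all probe sets stays at 0.105 to 0.11.

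RIN was the single member among the ripening regulators, a list of MADS-box and NAC genes with 8 measured probe sets. Without RIN, which was chosen on this contrast, 4 (57.1%) of the other 7 passed as higher at 50 dpa in limma, 0 as lower, and 3 did not pass, against 20.6% higher and 19.5% lower of all probe sets. Their median was 0.32, beside 0.02 over all probe sets. This list, like the others, was written with earlier results of these data known, so its shares are a description. NOR, a NAC transcription factor gene of tomato ripening, rose by 0.95 (SE 0.16, adjusted p = 0.00219) and already stood at 0.59 at 20 dpa. TDR6, a MADS-box gene, rose by 0.80 (SE 0.084, adjusted p = 0.000148). TDR4, another MADS-box gene, had 0.08 (adjusted p = 0.549).

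TomloxE was not in the list of lipoxygenase, jasmonate and volatile genes, which had 12 measured probe sets. Of these 1 (8.33%) passed as higher at 50 dpa, 5 (41.7%) as lower and 6 did not pass, with a median of -0.19, against the 20.6% and 19.5% of all probe sets. ADH2, an alcohol dehydrogenase gene of fruit aroma, rose by 0.84 (SE 0.14, adjusted p = 0.00159). The lipoxygenase gene loxC had differences of -0.75, 1.25, 1.44 and -0.62 at 5, 10, 20 and 50 dpa, and LOXB had 0.38 at 50 dpa (adjusted p = 0.266). A further lipoxygenase gene, loxD, had -0.36, -0.15, 0.11 and -0.16 at these stages (adjusted p = 0.247 at 50 dpa). TomloxE, at 3.06, was chosen on its values at these stages, so its contrast with the other lipoxygenases is a description. AOC, the allene oxide cyclase gene of jasmonate synthesis, fell by 1.53 at 50 dpa (SE 0.081, adjusted p = 2.81e-06).

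CHI17 was the single member in the defence and wound list of 22 measured probe sets. Of the other 21, 4 (19%) passed as higher at 50 dpa, 2 (9.52%) as lower and 15 did not pass, with a median of 0.19. The share that was higher is near the 20.6% of all probe sets. CHI3, another chitinase gene, rose by 0.68 (SE 0.17, adjusted p = 0.0157), and its earlier differences were 0.10, 0.11 and 0.14 at 5, 10 and 20 dpa. CHI9, a further chitinase gene, had -0.07 at 50 dpa (adjusted p = 0.638). PTI1, a protein kinase gene of disease resistance signalling, rose by 1.18 (SE 0.078, adjusted p = 1.06e-05) and already stood at 0.74 at 20 dpa, outside the limits for members.

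The other 21 of 23 lists held 0 members. The members were 74 of 10101 probe sets and the lists had at most 44 each, so nothing is read from this count. Some genes of these lists stood above 0 dpa from an earlier stage, and others rose mainly at 50 dpa. In the photosynthesis list 9 of 10 probe sets passed as higher at 50 dpa, against 20.6% of all probe sets. There PSBP, an oxygen-evolving complex subunit, already stood at 3.41, 4.14 and 3.74 at 5, 10 and 20 dpa. In the small heat shock list 3 of 3 passed as higher, against the same 20.6%, and HSP17-6 stood at 3.94 at 20 dpa and 4.70 at 50 dpa. Of 44 ethylene probe sets 9 (20.5%) passed as higher and 10 (22.7%) as lower, near the 20.6% and 19.5% of all probe sets. ACO5, an ACC oxidase gene with 4.79 at 50 dpa, had 6.36 at 20 dpa. Of 42 cell wall probe sets 8 (19%) passed as higher and 18 (42.9%) as lower, against 20.6% and 19.5% of all probe sets. XET2 of this list had differences of -0.81, -0.85, 0.11 and 4.28 at 5, 10, 20 and 50 dpa. CHS1 of the flavonoid list had -0.73, -0.54, -0.74 and 2.16 at these stages. Early values below 0 dpa put both outside the limits for members.

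Few markers of other material were measured, too few to set against the 20.6% of all probe sets that passed as higher at 50 dpa and the 19.5% as lower. The seed list had 3 measured probe sets, of which 0 passed as higher at 50 dpa and 1 as lower. MAN2, an endo-beta-mannanase gene, had differences of 0.71, 1.91, 3.81 and 0.03 at 5, 10, 20 and 50 dpa, so it was high at the earlier stages and not at 50 dpa (adjusted p = 0.922). One probe set of ats1 had 0.71, 0.05, 0.55 and 0.29 at these stages and the other 0.40, 0.03, -0.35 and -0.45. The storage protein and oleosin symbols of that list were not matched. The pollen and anther list had 7, of which 1, profilin, passed as higher (0.49, adjusted p = 0.00293). Of the control probe sets, those for the 5' end of actin stood 0.386 higher against the 3' end at 50 dpa than at 0 dpa, and those of GAPDH 0.315. At 5, 10 and 20 dpa these shifts were 1.09, 0.366 and 0.521 for actin and 0.77, 0.692 and 0.954 for GAPDH. Of the control probe sets 0 met the limits used for the members. Members were rare on the whole array (74 of 10101), so nothing is read from this count. Some controls were not flat. The 25S rRNA probe set had -0.71, -1.81, 0.01 and 1.04 at 5, 10, 20 and 50 dpa. A probe set of the control dap had 2.02, -0.43, -0.19 and -0.54, and a bioB probe set -0.14, -0.58, -0.21 and -0.10. Others stayed nearer to 0 dpa, such as a PhyB2 probe set with 0.14, 0.14, 0.02 and 0.15. The part of these shifts in the members' values was not tested. The part of RNA quality in the members' values was not tested.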

How the data were processed

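Per the series design text, the authors processed the arrays with RMA in GeneSpring GX 11.5 (background correction, quantile normalisation, median polish) and deposited log2 values. The sample titles say that 0 dpa was normalised with each later stage in turn, which gave 4 sets of 6 columns, or 24 columns for 15 arrays. From the values, every probe set has a median of 0 in each set to within 5e-07, so no signal level is left and no filter on dim probes, background correction or renormalisation could be tried. A positive value was read as higher expression, with no scanner values at hand to check that. The number of arrays limits the precision. A limma p value sets a mean difference against the spread between these arrays, drawn towards the spread over all probe sets.

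Control probe sets were left out, and 10101 were tested. limma 3.58.1 (lmFit, eBayes, two-sided, in R 4.3.3) compared each stage with the 0 dpa columns of its set, with Benjamini-Hochberg adjustment over all 10101 and a threshold of 0.05. The fit was tested on simulated data. Same-numbered replicates of a stage and 0 dpa had deviations with correlations of -0.0168 to 0.102, so the numbers were not taken as pairs. Of the 12 such pairs 8 nevertheless matched best by number, and a replicate block was tried for that reason. The platform annotation of 2007 gave 909 probe sets 1 symbol each. Every member with a symbol was named, and of those without one the 2 with the largest rise. Of each gene list described, members and examples were named, some of the latter after their values were seen. Members and lists were chosen with earlier results of these data known. Alternatives were the methods' t-test, a replicate block, robust eBayes, a fit of 15 arrays, median centring, array medians, other limits and leaving out each array. Plots were drawn with matplotlib 3.10.9.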

Additional observations from a re-analysis of the deposited data

Results flagged for a closer look

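Some named members read below the 0 dpa mean on all 3 arrays of an earlier stage and above it on all 3 arrays of 50 dpa, and the difference between those stages was not tested. At 5 dpa this held for TomloxE (-0.21), ALPHA-DOX2 (-0.22), LOC543677 (-0.17), RIN (-0.11) and SAR2 (-0.073). At 10 dpa it held for ALPHA-DOX2 (-0.15), LOC778266 (-0.14) and RIN (-0.13). At 20 dpa it held for TomloxE (-0.25), LOC543892 (-0.12) and CHI17 (-0.10). No early difference listed here passed in limma (adjusted p = 0.0671 to 0.656). Of all flat probe sets only 47.7%, 45% and 44.4% had means above 0 at 5, 10 and 20 dpa, so low early values are common. The choice of members required the mean rise at 50 dpa and limited the size of these early values. Groups had 3 arrays, too few for a check of single arrays that stand apart.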

How the results depend on the processing

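The number of members followed the limits: 18 with at least 1.5 at 50 dpa, 27 with earlier differences under 0.3 and 155 with under 0.7, against 74. Leaving out 1 array gave 71 to 82 members, and 39 of the 74 met the limits under all 15 omissions. The members' median difference at 50 dpa was 1.27 with medians of the 3 arrays, 1.24 with arrays centred on their median, and 1.22 to 1.28 without 1 array. In the methods' t-test 6 members (8.11%) passed at 5 dpa, against 20.9% of all probe sets, and 14 (18.9%) at 10 dpa, against 26.2%, where limma gave 20 and 25 members. Without 1 array the counts were 9 to 16 members at 5 dpa, against 24.3% to 30.6% of all probe sets, and 14 to 21 at 10 dpa, against 29.1% to 30.9%. With the replicate number as a block, 74, 17, 23 and 27 members passed at 50, 5, 10 and 20 dpa, against 37.9%, 30.4%, 33.7% and 36.9% of all probe sets (3831 at 50 dpa). That block changed no count by over 1.5 times, and of the 12 pairs of same-numbered arrays 8 matched best by number. At 50 and 20 dpa the members' counts stayed within 1.5 times under all alternatives tried. Of 88 values of the named members under alternatives 84 moved by less than 1 SD and 0 changed sign. The SD was that of the gene's own 3 arrays at 50 dpa. Leaving out 1 of those arrays cannot move the mean by that much, so the count does not measure stability. The 4 that moved were FER at 0.93 and 1.63 without 0 dpa replicates 1 and 3, and LOC543892 at 1.23 and 1.91 without 0 dpa replicates 1 and 2. The causes were not tested.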
